A study of Mus musculus with 38 samples.

Results

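Intraperitoneal hippuric acid was compared with intraperitoneal vehicle in the tail skin of wild type mice by bulk RNA-seq. The comparison holds 8 of the 38 libraries of the series, 5 from mice given hippuric acid and 3 from mice given vehicle, chosen by the treatment in their labels. The other libraries come from mice with vitiligo induction or no induction, each with or without ABX, given in the design text as a depletion of gut microbes. The 9 libraries of induced mice and the 9 of uninduced mice without ABX serve below as a second comparison and as a further set of baseline values. Strain, age, sex, dose, number of injections and time of sampling are not given in the sources used here, and the labels do not say whether each library is 1 mouse, and p-values then reflect variation among the deposited libraries, which may be technical. Every injected mouse was wild type and none was induced. The stated purpose of the injections was to raise hippuric acid and look for an accumulation of reactive oxygen species in skin.

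Hippuric acid is the glycine conjugate of benzoate. Gut bacteria release benzoate from plant phenols, the liver and kidney join it to glycine, and the kidney secretes the product through organic anion transporters. Reactive oxygen species are cleared by superoxide dismutases, catalase, peroxidases and peroxiredoxins, and are made by NADPH oxidases among others. In tail skin the epidermis makes a cornified barrier from keratins, cross-linked envelope proteins and lipids, and dermal adipocytes lie beneath it.

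Library totals were 17.9 to 20.5 M estimated reads (M, 1000000 reads) with hippuric acid and 15.9 to 22.2 M with vehicle. Levels are given as counts per 1000000 (CPM) on one scale over 26 libraries. Epidermal markers were abundant in all 8 libraries, with a summed level of 10190 to 12740 CPM over 7 genes with hippuric acid and 22200 to 33410 CPM with vehicle. On the first principal component, which held 38.6% of the variance, the hippuric acid libraries lay between 17.4 and 27.4 and the vehicle libraries between -37.2 and -33.5. Vehicle library 1 stood apart from vehicle libraries 2 and 3 on the second component, at -43.6 against 20.25 and 25.01. It was also the one library of the 8 with Y-linked transcripts, which summed to 173 CPM over 4 genes there and to at most 0.153 CPM in each of the other libraries. Over the same 4 genes, the uninduced libraries used below had 0 to 221 CPM and the induced ones 0.0377 to 0.307 CPM. Sex and batch are not labelled, so their part in the results was not tested. Values without vehicle library 1 stand beside many of the results below.

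Of 14097 genes tested, 1940 (13.8%) differed between hippuric acid and vehicle at an adjusted p under 0.05 (edgeR's quasi-likelihood test with Benjamini-Hochberg adjustment). 772 were higher with hippuric acid (5.48% of genes tested) and 1168 were lower (8.29%). A change of at least 2-fold was found for 193 of the higher and 238 of the lower genes. The 5 hippuric acid libraries lay wholly above the 3 vehicle libraries for 8.67% of genes tested and wholly below them for 13% of genes tested. Without vehicle library 1, 2786 genes were called (19.6%), 1445 higher (10.2%) and 1341 lower (9.43%), so the share of calls that were higher was 51.9% in place of 39.8%. The 1597 genes called both with and without that library had the same sign in both. With 1 hippuric acid library left out, 1149 (library 3) to 1424 (library 5) genes were called, and 1214 and 1217 without libraries 4 and 1. For hippuric acid against vehicle, higher, the count was 399, 463, 416 and 469 without hippuric acid libraries 1 to 4 and 427 without vehicle library 3. For hippuric acid against vehicle, lower, it was 733 and 745 without hippuric acid libraries 3 and 4.

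**Figure D1:**
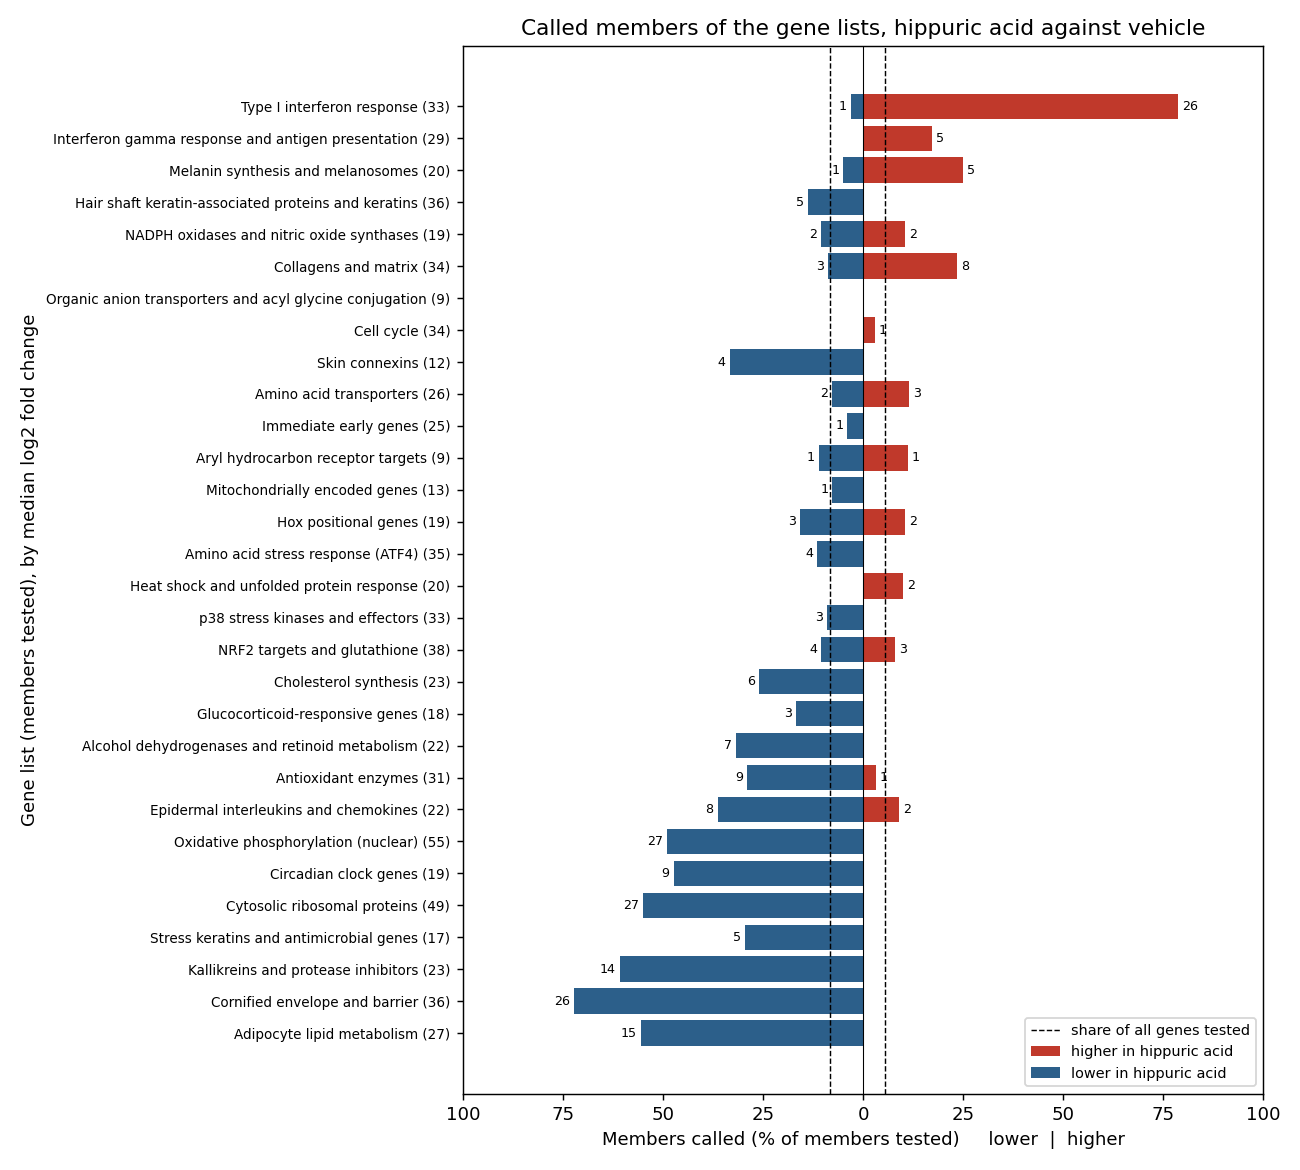
Share of tested members of 30 gene lists that were called higher (red, right) or lower (blue, left) with hippuric acid against vehicle; the number at a bar is the count of members called, the number after a list's name is how many were tested, and dashed lines mark the shares over all genes tested, 5.48% higher and 8.29% lower. Type I interferon genes stand at the top with 26 of 33 higher, and adipocyte, cornified envelope and kallikrein genes at the foot with 15 of 27, 26 of 36 and 14 of 23 lower; one list with fewer than 9 tested members is left out.

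Genes of the type I interferon response were higher with hippuric acid. They encode sensors of foreign RNA, inhibitors of translation and protein modifiers, and are switched on by an interferon-activated factor that binds the interferon-stimulated response element (ISRE). Of 33 tested members, 26 rose and 1 fell, and the median log2 fold change of the list was 1.57, against 0.02 over all genes tested. All hippuric acid libraries lay above all vehicle libraries for 17 members and below them for 1. The promoters of Ifit1, Isg15 and Ifit3 are shown because each carries ISRE letters close to its start. They are the 160 bases before the RefSeq start in GRCm38.p6, on the gene's own strand, with matches to the ISRE letters in capitals, searched as GAAA, NN and GAAA in a row or the reverse complement TTTC, NN and TTTC. The 3 matches in Isg15 overlap one another.
Ifit1, chr19:34640729-34640888, plus strand: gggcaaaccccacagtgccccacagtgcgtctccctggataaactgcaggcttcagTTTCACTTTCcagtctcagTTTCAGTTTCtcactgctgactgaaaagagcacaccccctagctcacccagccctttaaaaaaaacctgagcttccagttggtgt
Isg15, chr4:156200819-156200978, minus strand: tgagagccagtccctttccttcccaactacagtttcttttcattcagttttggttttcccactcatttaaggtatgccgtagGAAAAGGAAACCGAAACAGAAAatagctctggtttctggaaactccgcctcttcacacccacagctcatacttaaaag
Ifit3, chr19:34583369-34583528, plus strand: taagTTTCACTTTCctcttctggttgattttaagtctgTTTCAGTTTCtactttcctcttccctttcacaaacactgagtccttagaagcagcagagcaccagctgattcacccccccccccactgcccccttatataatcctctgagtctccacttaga

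A match lay within 250 bases before any listed start of 10 of the 23 tested members with a RefSeq promoter (43.5%), against 3.29% of the 11116 tested genes with one. Among these members it was found in 7 of 18 that rose and in 3 of 5 that were not called. The letters describe the sequence and do not show that a factor was bound.

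Ifit1, which blocks translation of foreign RNA, had 34.6, 62.3, 6.93, 21.3 and 58.0 CPM in hippuric acid libraries 1 to 5, against 3.01, 2.56 and 1.42 CPM in vehicle libraries 1 to 3. Hippuric acid library 3 was the lowest of its group and still above every vehicle library. The log2 fold change was 3.96 ± 0.75 (SE), with an adjusted p of 0.0116. Isg15, a ubiquitin-like protein that is joined to other proteins, had 10.6, 23.6, 3.08, 9.34 and 17.3 CPM with hippuric acid and 1.91, 1.38 and 0.801 CPM with vehicle, a log2 fold change of 3.21 ± 0.66 (adjusted p = 0.0151). The groups again did not overlap. Ifit3, a partner of Ifit1, had 87.9, 136, 15.7, 47.5 and 104 CPM with hippuric acid, against 14.7, 7.54 and 8.88 CPM with vehicle (log2 fold change 2.91 ± 0.66, adjusted p = 0.0227). Library 3 was close to the highest vehicle library and the other 4 were well above it. Eif2ak2 and Parp14 had a narrower spread. Eif2ak2, the RNA-activated kinase that halts translation, had 32.2, 38.9, 27.2, 30.4 and 43.0 CPM with hippuric acid, against 18.7, 19.9 and 15.5 CPM with vehicle (log2 fold change 0.94 ± 0.16, adjusted p = 0.00484). Parp14, an ADP-ribosyl transferase, had 52.8, 68.8, 27.0, 39.01 and 62.1 CPM with hippuric acid, against 20.4, 19.8 and 17.9 CPM with vehicle (log2 fold change 1.37 ± 0.27, adjusted p = 0.0112). In both, all 5 hippuric acid libraries stood above the vehicle libraries.

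The 12 largest rises were taken among called genes with a mean of at least 1 CPM and a symbol that is not provisional. Of these, 10 were interferon-responsive genes: Ifit1, Isg15, Ifit3, Ifit3b, Oasl2, Oas3, Ifi44, Ifi206, Apol9a and Apol9b. Oasl2 and Oas3 belong to the oligoadenylate synthetase family, which senses double-stranded RNA, and Ifi206 to a family of DNA sensors. Oas1f, of the same family as Oas3 but outside the list, fell by 1.12 ± 0.11 (adjusted p = 0.000606). Its mean was 34.4 CPM with hippuric acid and 74.8 CPM with vehicle. The log2 fold changes of the 10 ran from 2.64 ± 0.70 in Oas3 to 3.96 in Ifit1. Ifit3 and Ifit3b, and Apol9a and Apol9b, are near-identical copies, so the split of reads within each pair is uncertain. Rtp4, a chaperone of receptors that interferon induces, had 30.0, 34.2, 6.77, 20.8 and 34.5 CPM with hippuric acid, against 4.82, 3.93 and 4.13 CPM with vehicle (log2 fold change 2.55 ± 0.50, adjusted p = 0.0122). Hippuric acid library 3 was the lowest of the group in this gene too, above all vehicle libraries. The one member that fell was Ifi27, an interferon-induced gene. It had 28.4, 34.0, 20.2, 27.7 and 17.7 CPM with hippuric acid, against 45.2, 36.8 and 42.0 CPM with vehicle (log2 fold change -0.69 ± 0.19, adjusted p = 0.0375).

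The calls in this list rested on few libraries. The number of members that rose was 18 without vehicle library 1, 10 without vehicle library 2 and 6 without vehicle library 3, with medians of 1.90, 1.46 and 1.47. It was 17 without hippuric acid library 1, 2 or 5, 22 without library 4 and 32 without library 3. Limma-voom with quality weights called 2 members higher at the same median of 1.57, and DESeq2 called 32. Isg15, Rtp4, Eif2ak2 and Parp14 kept their calls whichever library was left out. Ifit1 lost its call without vehicle library 1 (adjusted p = 0.0552) and Ifi44 without vehicle library 3 (adjusted p = 0.0555). Oasl2, Ifit3 and Ifit3b lost theirs without any one vehicle library, at adjusted p 0.0530 to 0.0703, and Apol9b and Ifi206 without vehicle library 1 or 2, at 0.0529 to 0.0636. Apol9a lost its call without any vehicle library or hippuric acid library 1 or 5 (0.0546 to 0.108), and Oas3 without vehicle library 2 or 3 or hippuric acid library 1, 2, 4 or 5 (0.0501 to 0.116). The fall of Ifi27 was called without hippuric acid library 2 and lost without any other library (0.0541 to 0.0916). The log2 fold change of Oas3 was 3.73 without vehicle library 1, and that of Ifi206 was 3.87 in place of 3.17 without vehicle library 3.

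**Figure D2:**
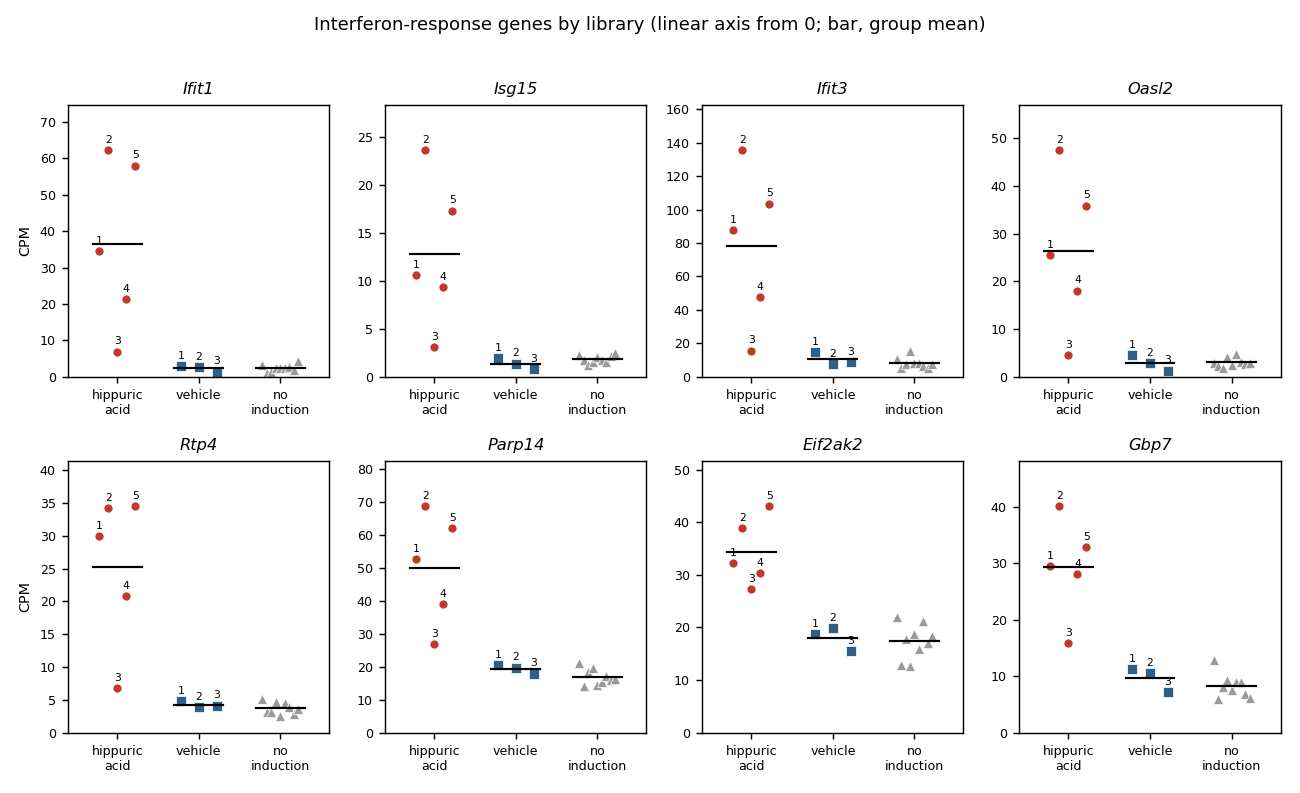
Levels of 8 interferon-response genes in CPM (y axis, linear from 0) in the 5 hippuric acid libraries (red circles), the 3 vehicle libraries (blue squares) and the 9 libraries of mice without induction (grey triangles); numbers are library numbers and bars are group means. Hippuric acid libraries 2 and 5 are the highest and library 3 the lowest of its group in Ifit1, with 62.3, 58.0 and 6.93 CPM against at most 3.01 CPM with vehicle.

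Interferon gamma targets and antigen presentation genes moved less: 5 of 29 tested members rose, none fell, and the median log2 fold change was 0.40. The count that rose was 9 without hippuric acid library 3, 3 without library 1, 2 or 5 or vehicle library 3, and 2 without vehicle library 2. The 5 were the guanylate-binding proteins Gbp3, Gbp4 and Gbp7, the related GTPase Iigp1 and the T cell chemokine Cxcl10. Gbp7 had 29.6, 40.1, 15.8, 28.1 and 32.9 CPM with hippuric acid, against 11.2, 10.6 and 7.15 CPM with vehicle (log2 fold change 1.61 ± 0.28, adjusted p = 0.00525). Gbp3 had 34.6, 48.7, 9.80, 30.5 and 41.2 CPM with hippuric acid, against 8.50, 6.82 and 5.61 CPM with vehicle (log2 fold change 2.24 ± 0.47, adjusted p = 0.0166). Neither gene's groups overlapped, and both kept their calls whichever library was left out. Iigp1 lost its call without vehicle library 1 or 2 (adjusted p 0.0556 to 0.0724), Cxcl10 without any library but hippuric acid library 4 or vehicle library 1 (0.0577 to 0.0717), and Gbp4 without any library but hippuric acid library 3 (0.0515 to 0.139). The log2 fold change of Cxcl10 was 2.45 in place of 1.86 without vehicle library 1. No marker of T cells or neutrophils was called by edgeR, of 6 and 5 tested; 0 and 2 had an unadjusted p under 0.05, and DESeq2 called 0 of both. Without vehicle library 1, edgeR called 1 neutrophil marker lower, and the median log2 fold change of these markers was 0.32 in place of -0.73.

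Genes of the cornified envelope and the epidermal barrier were lower with hippuric acid. Of 36 tested members, 26 fell and none rose, with a median log2 fold change of -1.0, and all hippuric acid libraries lay below all vehicle libraries for 26. Between 23 and 27 members fell whichever single library was left out, and 27 fell without vehicle library 1. Krt2, a keratin of the upper epidermis, had 3552, 3559, 3356, 2428 and 2818 CPM with hippuric acid, against 11110, 9521 and 9703 CPM with vehicle (log2 fold change -1.68 ± 0.16, adjusted p = 0.000492). Krt10, the main suprabasal keratin, had 5173, 5181, 5424, 4274 and 5091 CPM with hippuric acid, against 16930, 12540 and 11810 CPM with vehicle (log2 fold change -1.45 ± 0.16, adjusted p = 0.000836). In both keratins the highest hippuric acid library was far below the lowest vehicle library, and also below the lowest of the 9 uninduced libraries, at 5928 CPM for Krt2 and 7615 CPM for Krt10. Krt14, the keratin of the basal layer, was also lower, by a smaller amount, at 1781, 1822, 2018, 1572 and 1934 CPM with hippuric acid and 3986, 2579 and 3058 CPM with vehicle (log2 fold change -0.81 ± 0.16, adjusted p = 0.00847). In bulk skin, fewer cells of a type and less RNA per cell cannot be told apart. Of the 7 epidermal markers, 6 fell.

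Casp14, the caspase of cornifying cells that helps to process filaggrin, had 37.8, 35.6, 41.6, 38.2 and 39.8 CPM with hippuric acid, against 92.7, 90.8 and 102 CPM with vehicle (log2 fold change -1.30 ± 0.09, adjusted p = 0.000105). Both groups were tight and far apart. Hornerin (Hrnr), a filaggrin-like protein of the cornified layer, had 1460, 1426, 1275, 1219 and 1194 CPM with hippuric acid, against 3979, 4338 and 2742 CPM with vehicle (log2 fold change -1.48 ± 0.16, adjusted p = 0.000736). Krt78 and Krtdap, a keratin and a secreted product of differentiating keratinocytes, had log2 fold changes of -1.36 ± 0.16 and -1.40 ± 0.18 (adjusted p = 0.00101 and 0.00146). Loricrin (Lor), a bulk component of the envelope, had 151, 172, 98.5, 110 and 94.3 CPM with hippuric acid, against 1193, 388 and 372 CPM with vehicle (log2 fold change -2.37 ± 0.39, adjusted p = 0.00625). The groups did not overlap, but vehicle library 1 was far above the other vehicle libraries, and without it the log2 fold change was -1.58 (adjusted p = 0.00248).

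Kallikreins, the proteases that cut the junctions of shed cells, and their inhibitors fell as well: 14 of 23 tested members were lower and none higher, with a median log2 fold change of -0.99. Klk5, which starts this protease cascade, had 53.5, 56.1, 48.4, 47.6 and 42.1 CPM with hippuric acid, against 111, 91.7 and 93.6 CPM with vehicle (log2 fold change -0.99 ± 0.11, adjusted p = 0.00092). Klk11, another kallikrein, had a log2 fold change of -1.25 ± 0.13 (adjusted p = 0.000663). Of the inhibitors, Serpinb7 fell by 1.51 ± 0.16 (adjusted p = 0.000663) and Wfdc21 by 1.66 ± 0.12 (adjusted p = 0.000105). Wfdc21 had 15.9, 17.0, 13.9, 15.5 and 14.8 CPM with hippuric acid and 51.7, 54.0 and 41.2 CPM with vehicle. Proteases and inhibitors thus stood on the same side, and no group overlapped for these 4 genes.

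Epidermal cytokines and chemokines fell in 8 and rose in 2 of 22 tested members, against 8.29% and 5.48% of all genes tested. The median log2 fold change was -0.31, and 4 rose without vehicle library 1. Il36g, an alarm cytokine of keratinocytes, had 21.4, 25.5, 18.9, 21.3 and 21.3 CPM with hippuric acid, against 71.6, 56.5 and 49.4 CPM with vehicle (log2 fold change -1.44 ± 0.14, adjusted p = 0.000492). Its receptor antagonist Il36rn fell by 1.33 ± 0.16 (adjusted p = 0.00107), and the interleukin 1 antagonist Il1rn by 0.75 ± 0.10 (adjusted p = 0.00127). Il18, a cytokine released by activated inflammasomes, fell by 1.35 ± 0.18 (adjusted p = 0.00157). None of these 4 genes had overlapping groups. The 2 that rose were Cxcl14, a chemokine made constantly by skin, and Ccl17, which attracts T cells. Cxcl14 had 686, 804, 692, 730 and 652 CPM with hippuric acid, against 216, 344 and 351 CPM with vehicle (log2 fold change 1.24 ± 0.17, adjusted p = 0.00157). All hippuric acid libraries were above the highest uninduced library too, at 641 CPM. Ccl17 had 1.18 to 3.56 CPM with hippuric acid and 0.393 to 0.617 CPM with vehicle (log2 fold change 1.99 ± 0.49, adjusted p = 0.0239). Its call was lost without hippuric acid library 4 or vehicle library 2 or 3 (0.0520 to 0.0702).

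**Figure D3:**
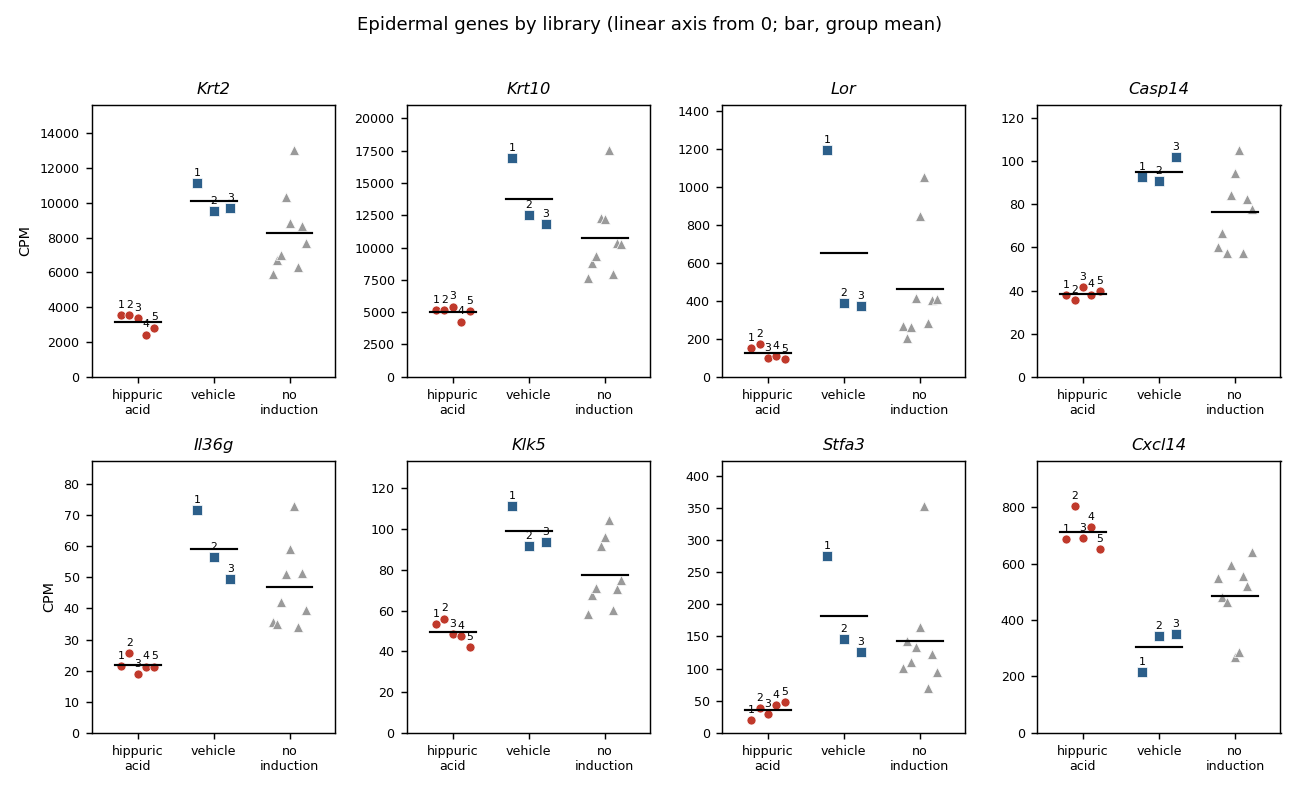
Levels of 8 epidermal genes in CPM (y axis, linear from 0) in the hippuric acid (red circles), vehicle (blue squares) and uninduced (grey triangles) libraries; numbers are library numbers and bars are group means. In Krt2, Krt10, Lor, Casp14, Il36g, Klk5 and Stfa3 all 5 hippuric acid libraries lie below every other library shown, and in Cxcl14 above them; vehicle library 1 is the highest vehicle library in Lor, at 1193 CPM.

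Of the stress keratins and antimicrobial genes, 5 of 17 tested members fell and none rose, against 8.29% and 5.48% of all genes tested. The 5 were the defensins Defb1 and Defb6, the protease inhibitors Stfa3 and Serpinb3a, and the acute phase protein Saa1. Without vehicle library 1, 5 fell and 1 rose, with a median log2 fold change of 0.31 in place of -0.67. Stfa3, a stefin, had 20.01, 38.99, 29.0, 43.2 and 48.3 CPM with hippuric acid, against 275, 146 and 126 CPM with vehicle (log2 fold change -2.34 ± 0.32, adjusted p = 0.00237). Saa1 fell by 1.66 ± 0.38, and by 0.84 without vehicle library 1 (adjusted p = 0.0216 and 0.0318). The defensin Defb6 fell by 0.98 ± 0.14 (adjusted p = 0.00194), and its log2 fold change was -0.15 after correction for transcript length and GC content (adjusted p = 0.409). With that correction the call of Defb1 was also lost, and 3 members of the list fell. Gjb5 and Gjb6, connexins of skin gap junctions, fell, and the other connexins are not described here. Gjb5 had 37.1, 38.9, 40.6, 40.1 and 37.5 CPM with hippuric acid, against 74.0, 66.3 and 73.8 CPM with vehicle (log2 fold change -0.87 ± 0.09, adjusted p = 0.000492). Gjb6 fell by 0.67 ± 0.11 (adjusted p = 0.00317).

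Genes of adipocytes were lower with hippuric acid. Of the 10 adipocyte markers, 9 fell, and of 27 tested genes of adipocyte lipid metabolism 15 fell and none rose, with a median log2 fold change of -1.46. Leptin (Lep), the hormone that reports fat stores, had 1.13, 1.46, 0.0513, 1.02 and 0.0474 CPM with hippuric acid, against 16.4, 35.7 and 17.0 CPM with vehicle (log2 fold change -4.92 ± 0.65, adjusted p = 0.00235). Adiponectin (Adipoq), a hormone of fat cells, had 28.4, 45.1, 7.80, 29.9 and 6.63 CPM with hippuric acid, against 137, 155 and 127 CPM with vehicle (log2 fold change -2.56 ± 0.55, adjusted p = 0.0185). Hippuric acid libraries 3 and 5 were the lowest in both genes and the groups did not overlap. Perilipin 1 (Plin1), which coats the lipid droplet, had 20.4, 37.0, 7.49, 22.1 and 5.49 CPM with hippuric acid, against 111, 113 and 124 CPM with vehicle (log2 fold change -2.63 ± 0.51, adjusted p = 0.0127). Lipoprotein lipase (Lpl), which frees fatty acids for uptake, had 177, 234, 105, 154 and 117 CPM with hippuric acid, against 327, 515 and 311 CPM with vehicle (log2 fold change -1.28 ± 0.26, adjusted p = 0.0121). Libraries 3 and 5 were again the lowest. Dgat2, which completes triglyceride synthesis and is also made in other skin cells, had a tighter spread, at 142, 150, 123, 137 and 105 CPM with hippuric acid and 299, 276 and 324 CPM with vehicle (log2 fold change -1.18 ± 0.12, adjusted p = 0.000617).

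Among the 12 largest falls, taken in the same way as the rises, were 8 genes of fat or of its secretions: Lep, Adipoq, Plin1, the resistin gene Retn, the lipid droplet protein Cidec, the melanocortin receptor partner Mrap, the retinol carrier Rbp4 and haptoglobin (Hp). Their log2 fold changes ran from -4.92 in Lep to -2.48 ± 0.42 in Rbp4. The vehicle libraries were themselves high in several of these genes against the libraries of uninduced mice. The 9 uninduced libraries had 0.590 to 10.9 CPM of Lep with a median of 2.69 CPM, 19.9 to 101 CPM of Adipoq with a median of 73.2 CPM, and 20.8 to 95.2 CPM of Plin1 with a median of 59.0 CPM. For these 3 genes all vehicle libraries lay above the uninduced range, while hippuric acid libraries lay in or below it. The summed level of the 10 markers was 325 to 1074 CPM with hippuric acid, 1926 to 2408 CPM with vehicle and 513 to 1654 CPM in uninduced libraries. Fat content of the pieces of skin was not recorded in the labels, and its part in these values was not tested. Of 27 members, 12 to 17 fell whichever single library was left out. Adipoq lost its call without vehicle library 1 (adjusted p = 0.0605).

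Of the other 4 large falls, Cyp2e1, a cytochrome P450 of fat and liver, had 16.9, 17.2, 1.44, 5.38 and 1.28 CPM with hippuric acid, against 174, 52.0 and 57.6 CPM with vehicle (log2 fold change -3.48 ± 0.82, adjusted p = 0.0279). Without vehicle library 1 its log2 fold change was -2.67 (adjusted p = 0.112), and its call was also lost without hippuric acid library 4 (adjusted p = 0.0640). C7, a terminal complement component, had 1.38, 0.228, 0.103, 1.11 and 0.426 CPM with hippuric acid, against 226, 1.44 and 2.47 CPM with vehicle. The fitted fall of 6.86 ± 1.80 on the log2 scale (adjusted p = 0.0495) rests on vehicle library 1, and without it the log2 fold change was -1.55 (adjusted p = 0.155). The call of C7 was also lost without any one hippuric acid library (0.0936 to 0.128), and its log2 fold change was -7.47 without vehicle library 2 and -7.46 without vehicle library 3. Itgad, an integrin of macrophages, had 0.246, 0.411, 0.205, 0.222 and 0.332 CPM with hippuric acid, against 2.005, 4.13 and 1.73 CPM with vehicle (log2 fold change -3.16 ± 0.40, adjusted p = 0.00125). Hydin, a protein of motile cilia, had 0.444, 0.457, 0.205, 0.489 and 0.0474 CPM with hippuric acid, against 4.20, 2.10 and 3.14 CPM with vehicle (log2 fold change -3.23 ± 0.47, adjusted p = 0.00193). The groups did not overlap in either, at low levels.

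Several genes of the circadian clock were lower with hippuric acid, among them outputs and repressors of the clock. Of 19 tested members, 9 fell and none rose, with a median log2 fold change of -0.52. The activators of the clock bind the E-box CACGTG, and the promoters of Ciart and Tef are shown because both fell and both carry it. The sequences are again the 160 bases before the RefSeq start in GRCm38.p6 on the gene's own strand, with CACGTG, which reads the same on both strands, in capitals. Of the 2 starts listed for Tef, the one with the most matches is shown.
Ciart, chr3:95882229-95882388, minus strand: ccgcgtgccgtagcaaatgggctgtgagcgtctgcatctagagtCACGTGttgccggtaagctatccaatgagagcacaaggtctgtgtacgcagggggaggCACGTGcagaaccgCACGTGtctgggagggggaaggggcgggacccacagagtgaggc
Tef, chr15:81802513-81802672, plus strand: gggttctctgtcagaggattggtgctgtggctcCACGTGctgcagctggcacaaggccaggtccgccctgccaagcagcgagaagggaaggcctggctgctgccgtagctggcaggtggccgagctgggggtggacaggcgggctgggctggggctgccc

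CACGTG lay within 250 bases before any listed start of 4 of the 8 members that fell and have a RefSeq promoter (50%). It lay there in 1 of 8 that were not called, and in 9.54% of the tested genes with a promoter. Dbp, a transcription factor that follows the clock, had 14.8, 18.8, 24.8, 12.8 and 24.6 CPM with hippuric acid, against 69.0, 45.9 and 56.7 CPM with vehicle (log2 fold change -1.57 ± 0.22, adjusted p = 0.00185). Nr1d1, the repressor of the clock's activator arm, had 78.5, 95.7, 87.2, 63.3 and 80.7 CPM with hippuric acid, against 162, 160 and 180 CPM with vehicle (log2 fold change -1.04 ± 0.12, adjusted p = 0.00107). Every hippuric acid library was below every vehicle and every uninduced library in both genes. Tef, a relative of Dbp, fell by 0.72 ± 0.11 (adjusted p = 0.00208), and Ciart, a repressor, by 0.97 ± 0.17 (adjusted p = 0.00461). Between 8 and 12 members fell whichever single library was left out. All hippuric acid libraries lay above all vehicle libraries for 2 members of the list and below them for 8. A rise was called for 1 member by DESeq2, and for 1 by edgeR without vehicle library 2. The hour at which skin was taken is not labelled and its part was not tested.

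**Figure D4:**
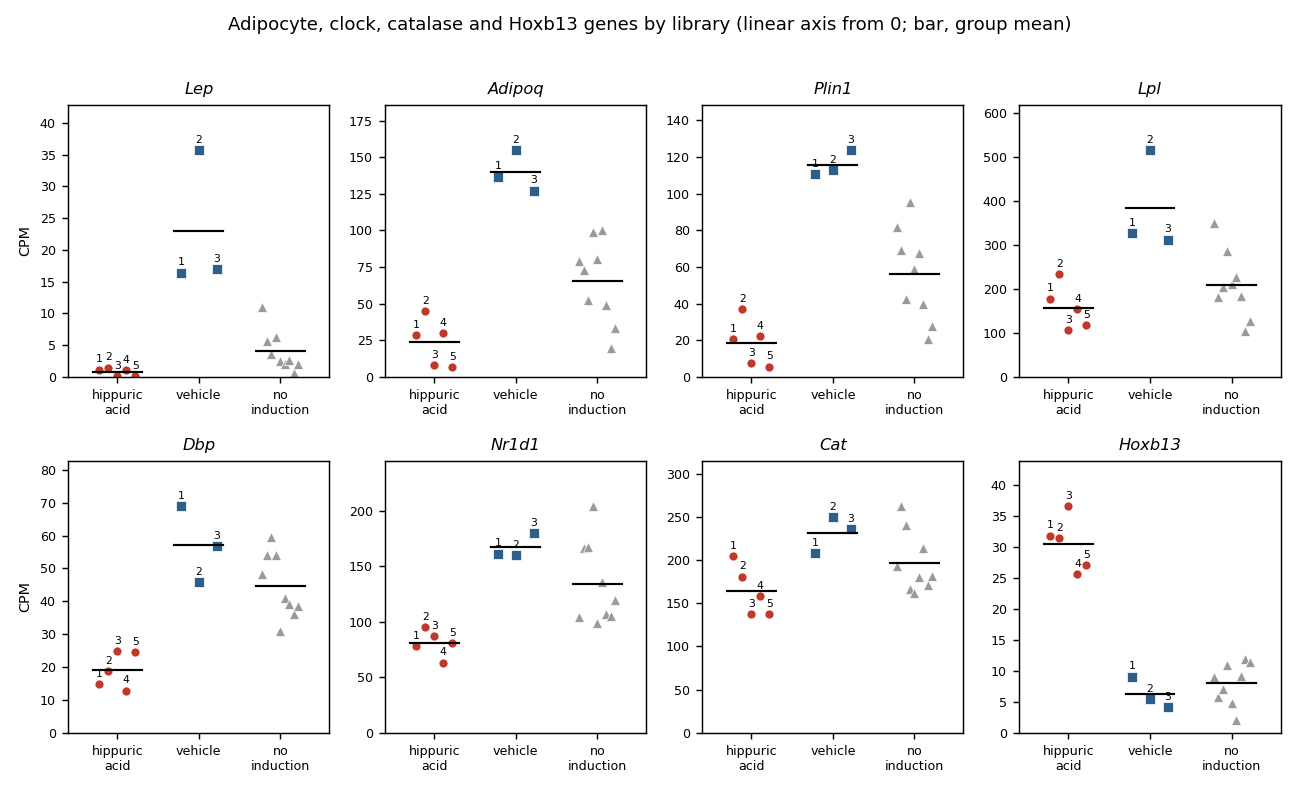
Levels of 4 adipocyte genes, 2 clock genes, catalase (Cat) and Hoxb13 in CPM (y axis, linear from 0) in the hippuric acid (red circles), vehicle (blue squares) and uninduced (grey triangles) libraries; numbers are library numbers and bars are group means. For Lep, Adipoq and Plin1 the vehicle libraries lie above the uninduced ones; for Dbp and Nr1d1 the hippuric acid libraries lie below all others shown, and for Hoxb13 above them, at 25.6 to 36.5 CPM.

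Of 31 tested antioxidant enzymes, 9 fell and 1 rose, against 8.29% and 5.48% of all genes tested. The median log2 fold change of the list was -0.28. Glutaredoxin (Glrx), which removes glutathione from proteins, had 169, 210, 160, 196 and 166 CPM with hippuric acid, against 436, 349 and 306 CPM with vehicle (log2 fold change -1.01 ± 0.14, adjusted p = 0.00153). The peroxiredoxin Prdx5 had 204, 221, 204, 198 and 208 CPM with hippuric acid, against 462, 327 and 305 CPM with vehicle (log2 fold change -0.81 ± 0.13, adjusted p = 0.00338). The groups were apart in both. Prdx6 and Prdx1 fell by 0.71 ± 0.14 and 0.47 ± 0.10 (adjusted p = 0.00983 and 0.0118). Catalase (Cat), which splits hydrogen peroxide, had 204, 181, 137, 158 and 138 CPM with hippuric acid, against 208, 250 and 236 CPM with vehicle (log2 fold change -0.49 ± 0.14, adjusted p = 0.0428). The highest hippuric acid library was just below the lowest vehicle library, and 162 to 262 CPM were found in uninduced libraries. The cytosolic superoxide dismutase Sod1 had 72.2, 72.9, 66.8, 64.3 and 59.7 CPM with hippuric acid, against 138, 87.8 and 75.0 CPM with vehicle (log2 fold change -0.57 ± 0.17, adjusted p = 0.047). Its call was kept without vehicle library 3 and lost without any other library (0.0614 to 0.111), and that of catalase was kept without hippuric acid library 1 or vehicle library 1 and lost otherwise (0.0561 to 0.0985). The methionine sulfoxide reductase Msrb3 rose by 0.35 ± 0.10 (adjusted p = 0.0381), a call kept without vehicle library 1 alone (otherwise 0.0504 to 0.106). Without a hippuric acid library 5 or 6 members of the list fell, and without vehicle library 1, 2 or 3 the number was 7, 6 and 8. After correction for transcript length and GC content, 7 fell and 1 rose, with a median log2 fold change of -0.13. The calls of catalase and Sod1 were lost with that correction.

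The mitochondrial dismutase Sod2 (log2 fold change -0.14, adjusted p = 0.289), the selenium peroxidase Gpx1 (-0.56, adjusted p = 0.0732) and the thioredoxin inhibitor Txnip (-0.06, adjusted p = 0.866) were not called. Gpx1 was called without vehicle library 3. Of the targets of NRF2, the factor that answers oxidants, 3 of 38 rose and 4 fell, against 5.48% and 8.29% of all genes tested. The median log2 fold change of the list was -0.14. The textbook NRF2 targets Hmox1 and Nqo1 were not called, at -0.31 (adjusted p = 0.196) and 0.24 (adjusted p = 0.471). Nqo1 was called at 0.62 without vehicle library 1 (adjusted p = 0.0149). Those that rose were Aldh3a1, an aldehyde dehydrogenase, Ugdh, which makes the sugar acid for glucuronidation, and Gclc, which starts glutathione synthesis. Aldh3a1 had 143, 130, 115, 98.4 and 111 CPM with hippuric acid, against 71.4, 82.6 and 90.9 CPM with vehicle (log2 fold change 0.56 ± 0.13, adjusted p = 0.0221). Ugdh and Gclc rose by 0.46 ± 0.13 and 0.59 ± 0.17 (adjusted p = 0.0343 and 0.0456). Leaving out 1 library gave 1 to 4 rises and 2 to 6 falls in this list, with 1 rise without hippuric acid library 1, 3 or 4, 2 falls without hippuric acid library 2, 3, 4 or 5 or vehicle library 3, and 6 falls without vehicle library 2. The call of Ugdh was lost without vehicle library 3 or hippuric acid library 1, 2, 3 or 4 (0.0541 to 0.0950), and that of Gclc without any library but hippuric acid library 2 or vehicle library 3 (0.0624 to 0.0984). Those that fell were the glutathione transferases Mgst2, Gsta2 and Gsta1 and the carbonyl reductase Cbr3. Mgst2 had 4.48, 6.03, 4.36, 4.003 and 4.64 CPM with hippuric acid, against 12.1, 12.7 and 14.4 CPM with vehicle (log2 fold change -1.46 ± 0.16, adjusted p = 0.000836). Gsta2 fell by 1.17 ± 0.16 (adjusted p = 0.00156). Gsta1 and Cbr3 fell by 0.92 ± 0.28 and 0.37 ± 0.10 (adjusted p = 0.0492 and 0.0379), calls that were kept without vehicle library 2 and lost without any other library (0.0541 to 0.216). Both calls, and that of Ugdh, were also lost after correction for transcript length and GC content. Gsta1 and Gsta2 are near-identical, so their split is uncertain.

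Among the sources of oxidants, 2 of 19 tested genes rose and 2 fell, against 5.48% and 8.29% of all genes tested. The list holds NADPH oxidases, nitric oxide synthases and other genes, among them Rac2 and the cytochrome P450 Cyp2e1. Cybb, the catalytic subunit of the phagocyte oxidase, had 39.6, 39.9, 41.4, 37.4 and 43.0 CPM with hippuric acid, against 27.9, 22.5 and 18.3 CPM with vehicle (log2 fold change 0.82 ± 0.13, adjusted p = 0.00358). All hippuric acid libraries were above the vehicle libraries and above the uninduced maximum of 32.1 CPM. Cybb kept its call whichever library was left out and lost it in the fit over all 38 libraries (adjusted p = 0.261). In that fit no member of the list rose and 1 fell. Rac2, the small GTPase that activates that oxidase, rose by 0.74 ± 0.22 (adjusted p = 0.0444), and Duox1, the dual oxidase of epithelia, fell by 0.61 ± 0.15 (adjusted p = 0.0241). Rac2 kept its call only without vehicle library 1 (otherwise 0.0631 to 0.152), and Duox1 lost it without hippuric acid library 3 or vehicle library 2 or 3 (0.0558 to 0.0590). The second gene that fell was Cyp2e1, given above. In this list 8 members rose and 1 fell without vehicle library 1. The macrophage markers, whose cells carry Cybb and Rac2, summed to 1269 to 1442 CPM with hippuric acid and 778 to 1435 CPM with vehicle, with 1 of 8 called, and 6 of 8 without vehicle library 1. Their part in the rise of Cybb and Rac2 was not tested. Nos2, the inducible nitric oxide synthase, had 3.60, 1.78, 1.74, 1.38 and 1.61 CPM with hippuric acid, against 1.00, 1.18 and 1.23 CPM with vehicle. The groups did not overlap but the difference was not called (log2 fold change 0.83 ± 0.37, adjusted p = 0.153), and library 1 was alone at the top.

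In the p38 stress kinase list, 3 of 33 tested members fell and none rose, against 8.29% and 5.48% of all genes tested. Without vehicle library 1, 6 fell and 1 rose, and 1 rose without hippuric acid library 5. The 3 were Mapk13, the p38 delta kinase of epithelia, at -0.72 ± 0.12 (adjusted p = 0.00365), its activator Map2k3 at -0.42 ± 0.09 (adjusted p = 0.0104) and the effector kinase Mapkapk3 at -0.40 ± 0.10 (adjusted p = 0.0268). Mapkapk3 lost its call without vehicle library 3 or hippuric acid library 1, 2, 3 or 4 (0.0546 to 0.0916). Mapk14, p38 alpha, had 100, 105, 100, 97.2 and 95.8 CPM with hippuric acid, against 119, 109 and 126 CPM with vehicle. Its groups did not overlap, and the difference of -0.24 ± 0.08 on the log2 scale was not called (adjusted p = 0.0857); it was called without vehicle library 2. RNA levels do not measure the phosphorylation by which these kinases act.

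Genes of the amino acid stress response changed little. Of 35 tested ATF4 targets, 4 fell and none rose, against 8.29% and 5.48% of all genes tested. The 4 were the serine synthesis enzymes Psat1 and Phgdh, the seryl-tRNA synthetase Sars and the stress protein Ddit4. Without vehicle library 3 a single member fell, and 2 fell without hippuric acid library 2, 3 or 4. Psat1 had 48.8, 64.2, 49.9, 58.9 and 53.3 CPM with hippuric acid, against 101, 79.7 and 99.1 CPM with vehicle (log2 fold change -0.76 ± 0.12, adjusted p = 0.00276). Phgdh fell by 0.53 ± 0.12 (adjusted p = 0.0143, and 0.0511 without vehicle library 3). Sars and Ddit4, at -0.33 ± 0.09 and -0.55 ± 0.16 (adjusted p = 0.0299 and 0.04), lost their calls without 5 and 6 of the 8 libraries (0.0656 to 0.107), kept by Sars without hippuric acid library 5, vehicle library 1 or 2 and by Ddit4 without hippuric acid library 1 or vehicle library 1. Atf4 itself, Ddit3, Trib3, Asns and Chac1 were not called, at log2 fold changes of 0.10, -0.02, -0.56, -0.28 and 0.74, although Asns was called at -0.36 without vehicle library 1. Of 26 amino acid transporters, 3 rose and 2 fell, against 5.48% and 8.29% of all genes tested. With 1 library left out, 1 to 4 rose and 1 to 3 fell (1 rose without hippuric acid library 1, 3 or 4 or vehicle library 2). Slc3a2, the heavy chain shared by several transporters, had 193, 194, 201, 182 and 183 CPM with hippuric acid, against 127, 136 and 142 CPM with vehicle (log2 fold change 0.50 ± 0.09, adjusted p = 0.0051). Its light chains Slc7a5 and Slc7a8 rose by 0.62 ± 0.17 and 0.78 ± 0.21 (adjusted p = 0.0354 and 0.0366). Slc7a5 lost its call without vehicle library 2 or any hippuric acid library but 2, and Slc7a8 without those or vehicle library 1 (0.0525 to 0.0852). Slc6a14 and Slc6a20a, which carry amino acids with sodium, fell by 0.91 ± 0.19 and 0.59 ± 0.14 (adjusted p = 0.0133 and 0.0208), the call of Slc6a20a being lost without hippuric acid library 3 or vehicle library 2 or 3 (0.0521 to 0.0570). Of 18 genes of organic anion transport and acyl glycine conjugation, 9 passed the filter on low counts and edgeR called none, with 2 at an unadjusted p under 0.05, while DESeq2 called 2 lower. Without vehicle library 1, edgeR called 2 higher, and it called 1 lower without hippuric acid library 2 or vehicle library 2 or 3. Slc22a6, the kidney transporter of hippurate, was listed at 0 in all 8 libraries.

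Of 20 tested genes of melanin synthesis and melanosomes, 5 rose and 1 fell, against 5.48% and 8.29% of all genes tested. The median log2 fold change of the list was 0.34. The count that rose was 1 without hippuric acid library 1 or vehicle library 2, 2 without hippuric acid library 3 or vehicle library 3, and 3 without hippuric acid library 2. Ednrb, the endothelin receptor of melanocytes and other cells, had 49.7, 49.9, 66.7, 48.6 and 62.6 CPM with hippuric acid, against 24.8, 27.9 and 21.2 CPM with vehicle (log2 fold change 1.18 ± 0.15, adjusted p = 0.00117). All hippuric acid libraries were above the uninduced maximum of 32.6 CPM as well. Tyrp1, an enzyme of eumelanin synthesis, had 32.3, 29.1, 43.1, 22.1 and 23.7 CPM with hippuric acid, against 17.4, 15.5 and 18.5 CPM with vehicle (log2 fold change 0.82 ± 0.21, adjusted p = 0.0262). Dct, another enzyme of eumelanin synthesis, had 33.4, 32.5, 38.6, 30.8 and 22.2 CPM with hippuric acid, against 21.9, 18.7 and 23.3 CPM with vehicle (log2 fold change 0.57 ± 0.17, adjusted p = 0.0436). The groups were apart in Tyrp1 and overlapped in Dct through hippuric acid library 5. The lineage factor Sox10 and the receptor Kit rose by 0.74 ± 0.18 and 0.49 ± 0.13 (adjusted p = 0.0231 and 0.0331), and Rab38, which carries cargo to melanosomes, fell by 0.82 ± 0.11 (adjusted p = 0.00151). Tyr, Pmel and Mlana were not called, at 0.36, 0.47 and 0.14 (adjusted p = 0.226, 0.154 and 0.655). The 8 melanocyte markers summed to 186.9 to 265.7 CPM with hippuric acid, 149.8 to 174 CPM with vehicle and 168.4 to 211.2 CPM in uninduced libraries. The melanin and melanosome list summed to 578.6 to 708.9, 511.5 to 548.6 and 507 to 692.8 CPM. The hippuric acid range thus overlapped the uninduced range in both lists. Tyrp1 lost its call without hippuric acid library 1 or vehicle library 2 or 3, Sox10 without those or hippuric acid library 3, Kit without hippuric acid library 1, 2 or 3 or vehicle library 2, and Dct without any library but hippuric acid library 5 or vehicle library 1 (0.0506 to 0.122 over the 4 genes). Sox10 is also a Schwann cell marker and Kit a mast cell marker. The mast cell genes Cpa3 and Ms4a2 rose with Kit, by 0.82 ± 0.23 and 1.05 ± 0.29 (adjusted p = 0.0376 and 0.0384), calls lost without 6 and 5 libraries (0.0548 to 0.108) and kept in both without hippuric acid library 5 or vehicle library 1, and in Ms4a2 without hippuric acid library 4.

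In the dermal matrix, 8 of 34 tested genes rose and 3 fell, against 5.48% and 8.29% of all genes tested. In the fit over all 38 libraries, 4 rose and none fell. Postn, a matrix protein that collagen fibres carry, had 2400, 2349, 2124, 1985 and 2207 CPM with hippuric acid, against 622, 1415 and 885 CPM with vehicle (log2 fold change 1.19 ± 0.23, adjusted p = 0.00848). Loxl1, which cross-links elastin, had 75.1, 75.1, 96.2, 69.8 and 83.1 CPM with hippuric acid, against 51.9, 34.1 and 36.5 CPM with vehicle (log2 fold change 0.97 ± 0.16, adjusted p = 0.00317). Both were higher in every hippuric acid library than in every vehicle and uninduced library. Tenascin C (Tnc) rose by 0.95 ± 0.19 (adjusted p = 0.0086). The genes that fell were Col7a1 and Col17a1, which anchor the epidermis to the dermis, and the protease Mmp3, at -0.62 ± 0.10, -0.53 ± 0.14 and -1.46 ± 0.30 (adjusted p = 0.00403, 0.0298 and 0.0126). Col17a1 lost its call without hippuric acid library 3, 4 or 5 or vehicle library 3 (0.0660 to 0.0817). Leaving out vehicle library 1, 13 matrix genes rose. Of 6 fibroblast markers, Pdgfra rose, at 0.48 ± 0.09 (adjusted p = 0.00611). The calls of Tnc, Col7a1, Mmp3 and Pdgfra were lost in the fit over all 38 libraries (adjusted p = 0.0969, 0.0911, 0.301 and 0.313). That of Col17a1 was lost there too.

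Of 19 Hox genes, which mark position along the body, 2 rose and 3 fell, against 5.48% and 8.29% of all genes tested. A single Hox gene fell without hippuric acid library 2, 3 or 5 or vehicle library 2 or 3. Hoxb13, the gene of the tail end of its cluster, had 31.8, 31.3, 36.5, 25.6 and 27.1 CPM with hippuric acid, against 9.07, 5.37 and 4.19 CPM with vehicle (log2 fold change 2.28 ± 0.24, adjusted p = 0.000617). The groups were far apart, and uninduced libraries had 2.04 to 11.97 CPM. Hoxd11 rose by 0.85 ± 0.16 (adjusted p = 0.00789), while Hoxa9, Hoxd8 and Hoxd9 fell by 0.51 ± 0.13, 0.36 ± 0.10 and 0.54 ± 0.12 (adjusted p = 0.0267, 0.0339 and 0.0149). Hoxa9 and Hoxd8 each lost their calls without 6 of the 8 libraries (0.0516 to 0.0849), Hoxa9 keeping its call without hippuric acid library 1 or vehicle library 1 and Hoxd8 without hippuric acid library 4 or vehicle library 1. The position of the skin piece along the tail is not labelled and its part was not tested. Acta1, skeletal muscle actin, was the largest of the 12 rises taken above. It had 1.92, 3.06, 4.31, 2.45 and 1.51 CPM with hippuric acid and 0.0477, 0.131 and 0.308 CPM with vehicle (log2 fold change 4.05 ± 0.58, adjusted p = 0.00185, and 4.88 without vehicle library 3). It was the one of 6 tested skeletal muscle markers that was called. Trim9, a ubiquitin ligase of nerve cells, had 0.548 to 2.70 CPM with hippuric acid and 0.143 to 0.328 CPM with vehicle (log2 fold change 2.61 ± 0.60, adjusted p = 0.0175, and 0.0520 without vehicle library 3).

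Short housekeeping transcripts were lower with hippuric acid. Of 49 cytosolic ribosomal protein genes, 27 fell and none rose, with a median log2 fold change of -0.55. Rps29 had 86.6, 81.4, 69.9, 70.9 and 63.4 CPM with hippuric acid, against 333, 242 and 145 CPM with vehicle (log2 fold change -1.69 ± 0.22, adjusted p = 0.00154). Rps28 and Rpl38 fell by 1.34 ± 0.21 and 1.21 ± 0.18 (adjusted p = 0.0032 and 0.00222). Without vehicle library 1 the median of the list was -0.28 and 22 members fell, and without hippuric acid library 1, 3 or 4 the number was 17, 16 and 17. Of 55 nuclear genes of oxidative phosphorylation, 27 fell and none rose, with a median of -0.41, against 1 of 13 genes encoded in the mitochondrial genome. Cox5a, a subunit of cytochrome c oxidase, had 41.8, 42.5, 43.7, 41.7 and 45.6 CPM with hippuric acid, against 75.4, 70.9 and 65.0 CPM with vehicle (log2 fold change -0.71 ± 0.09, adjusted p = 0.00115). Cox7c, another subunit, fell by 1.00 ± 0.14 (adjusted p = 0.00191). Transcript length moved with the direction of change over all genes. In the fifth of tested genes with the shortest transcripts, 1.77% rose and 15.9% fell, with a median log2 fold change of -0.16. In the fifth with the longest transcripts, 10.5% rose and 3.01% fell, with a median of 0.15. After an offset for transcript length and GC content, 15 oxidative phosphorylation genes fell with a median of -0.15, and 23 ribosomal protein genes fell with a median of -0.32. By the same offset, 27 interferon genes rose, and 25 cornified envelope, 15 kallikrein and inhibitor, 16 adipocyte lipid and 12 clock genes fell. It left 7 antioxidant enzymes lower, with a median of -0.13 in place of -0.28, and 3 stress keratin and antimicrobial genes. RNA integrity is not labelled and its part was not tested.

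Retinoid and cholesterol genes also held several falls and no rise, with 7 of 22 and 6 of 23 tested members lower, against 8.29% of all genes tested. The retinoid falls include Rbp4 and Dgat2, given above with the genes of fat. Leaving out 1 library gave 4 to 7 falls in each list, with 4 retinoid falls without hippuric acid library 3 or 5, 1 retinoid rise without hippuric acid library 1 and 1 cholesterol rise without vehicle library 2. Sdr16c5 and Rdh12, which convert retinol and retinal, fell by 1.11 ± 0.16 and 0.75 ± 0.11 (adjusted p = 0.00209 and 0.00237). In 5 further lists, 1 to 3 members of each were called. Of 34 cell cycle genes 1 rose, and of 20 heat shock genes 2 rose. Of 25 immediate early genes 1 fell, and of 18 glucocorticoid-responsive genes 3 fell. Of 9 aryl hydrocarbon receptor targets, 1 rose and 1 fell. The shares over all genes tested were 5.48% higher and 8.29% lower. Without vehicle library 1, 5 immediate early genes fell, and 4 glucocorticoid-responsive genes fell and 1 rose. No glucocorticoid-responsive gene was called by edgeR without hippuric acid library 2, 3 or 5 or vehicle library 2 or 3, and 1 without hippuric acid library 4; with all libraries 3 fell and 3 others had an unadjusted p under 0.05. In the cell cycle, heat shock and aryl hydrocarbon receptor lists 0 to 3 members were called with 1 library left out.

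The effect of hippuric acid was set against that of vitiligo induction, which was called in 1070 of 13826 genes (7.74%), 5.27% higher, between the 9 induced and the 9 uninduced libraries. Y-linked transcripts reached 221 CPM in the uninduced libraries and at most 0.307 CPM in the induced ones. The part of sex in the induction effect was not tested. The difference of the 2 effects, fitted in one model over the 4 groups, was called in 1557 of 14578 genes (10.7%), 393 (2.7%) with a higher and 1164 (7.98%) with a lower hippuric acid effect. Adipocyte genes went opposite ways. Of 27 genes of adipocyte lipid metabolism, 15 fell with hippuric acid and 21 rose with induction, and the difference was called for 23. Lep fell by 4.92 with hippuric acid and rose by 4.29 with induction, a difference of -9.21 on the log2 scale (adjusted p = 2.27e-06). For Adipoq, Cidec and Plin1 the differences were -5.12, -5.11 and -4.69 (adjusted p = 1.76e-05, 1.32e-05 and 7.15e-06). Itgad and Hydin, which fell with hippuric acid, rose with induction as well, with differences of -7.45 and -5.08 (adjusted p = 0.000208 and 2.27e-06).

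Many interferon genes rose in both. Of the 33 members of the type I list, 26 rose with hippuric acid and 21 with induction, and the difference was called higher for 3 and lower for 1. Ifit1 differed by 2.78 and Isg15 by 1.92 in favour of hippuric acid (adjusted p = 0.0264 and 0.0448), and Ifi27, which rose by 0.98 with induction, by -1.66 (adjusted p = 0.000241). Of the interferon gamma list, 19 of 29 members rose with induction, against the 5 with hippuric acid, and the difference was called for 3, all lower. The cornified envelope genes, 26 of which fell with hippuric acid, fell in 2 of 36 with induction, and the difference was called lower in 19 and higher in 1 of 37. Krt2 and Lor differed by -1.59 and -2.65 (adjusted p = 0.00065 and 0.00857). Catalase rose by 0.60 with induction (adjusted p = 0.00115), a difference of -1.09 (adjusted p = 0.00038), and Sod1 differed by -0.99 (adjusted p = 0.00271). The pigment enzymes Dct and Tyrp1 fell by 1.15 and 1.26 with induction (adjusted p = 0.0348 and 0.0341), and differed by 1.72 and 2.07 (adjusted p = 0.0425 and 0.0264). Hoxb13 differed by 3.32 (adjusted p = 0.00463). Leaving out vehicle library 1 gave 1026 genes with a called difference, 198 of them higher.

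**Figure D5:**
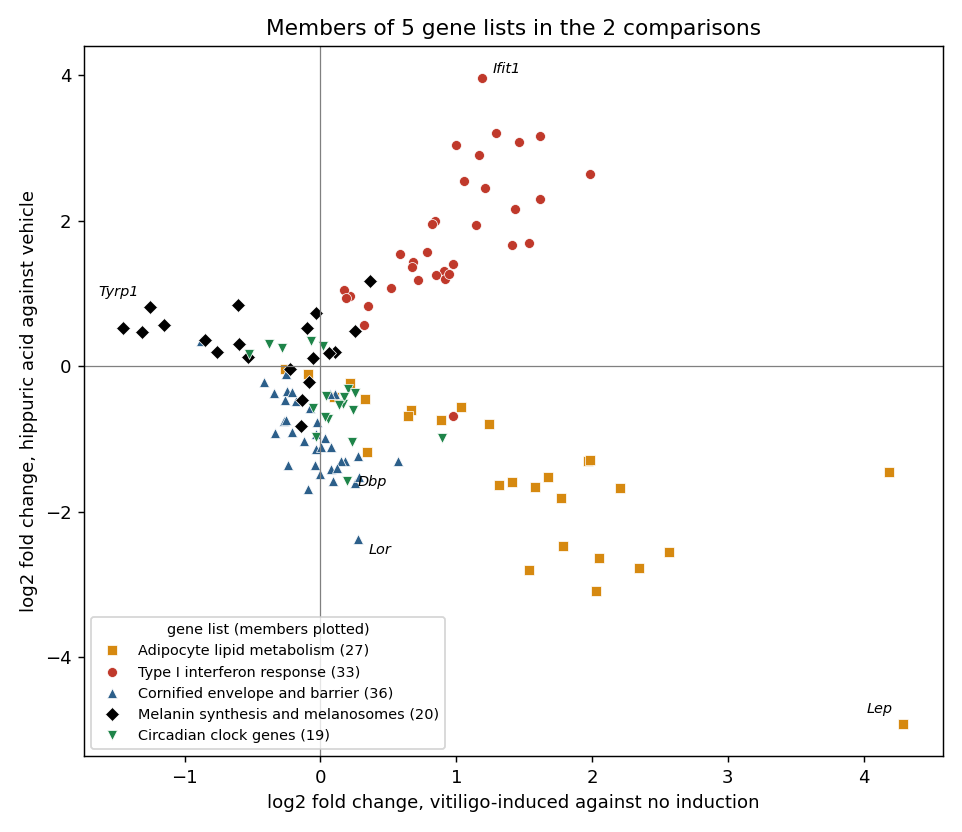
Log2 fold changes of the members of 5 gene lists with hippuric acid against vehicle (y axis) and with vitiligo induction against no induction (x axis); each point is 1 gene and the numbers in the key are members plotted. Adipocyte genes lie at the lower right, with Lep at 4.29 on the x axis and -4.92 on the y axis, interferon genes at the upper right, cornified envelope genes below 0 near the vertical line, and Tyrp1 among the pigment genes at the upper left.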

How the data were processed

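RNA-seq of mouse tail skin in 38 libraries was analysed from 1 table that the authors deposited, with an estimated count for each gene. DESeq2, StringTie 1.3.1, HISAT2 and Bowtie2 2.2.8 appear, with no role stated, in the submitters' processing notes; the genome build, counting program and strand setting are not given in the sources used here. In 16.2% of genes the deposited estimated counts held a value that is not whole, and values were rounded to whole counts. A row with no symbol and an incomplete row were left out, leaving 19218 genes.

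The 5 hippuric acid and 3 vehicle libraries, grouped by their labels, were compared with edgeR 4.0.16 in R 4.3.3 (TMM scaling, filterByExpr, robust quasi-likelihood test, Benjamini-Hochberg adjustment over all genes tested, threshold 0.05). The difference from the induction effect was an interaction contrast over 4 groups. CPM values are counts per 1000000 on TMM-scaled library sizes of 26 libraries. SE and p-values cover the spread between libraries only. No replicate pair agreed within sampling noise. Both tests were checked on simulated data.

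Genes were named by a rule: the 12 largest rises and falls among genes called with a mean of at least 1 CPM, a fixed set of oxidative stress, pigment and amino acid stress genes, and up to 4 genes per list. Provisional symbols, pseudogenes and immune receptor segments were left out of the rises and falls. Ifi27, Gbp4, Saa1, Msrb3, Cbr3, Gsta1, Gclc, Slc7a8, Mmp3, Col17a1, Hoxd8, Ccl17, Cxcl14 and Oas1f were chosen after their values were seen. Members and lists were chosen with earlier results of these data known. Alternatives were limma 3.58.1 (voom with quality weights), DESeq2 1.42.0, sva 3.50.0 with 1 surrogate variable, RLE scaling, other filters, all 38 libraries, a replicate block and each library left out. The offset for transcript length and GC content (GENCODE M21) and the fit without libraries with Y-linked transcripts were added after seeing the data. Promoters are from RefSeq (GRCm38.p6). Some results are not reported here.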

Additional observations from a re-analysis of the deposited data

Results flagged for a closer look

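In 136 genes the highest or lowest of the 5 hippuric acid libraries was compared with the rest of its group, and in 3 genes it stood apart (its gap to the nearest library over the whole range was at least 0.71). Chance flags about 1 in 20 groups. Krt10 had 4274 CPM in hippuric acid library 4, and 5091 to 5424 CPM in the other hippuric acid libraries. Nos2 had 3.597 CPM in hippuric acid library 1, and 1.379 to 1.781 CPM in the others. Cox7c had 46.07 CPM in hippuric acid library 3, and 54.7 to 57.12 CPM in the others.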

How the results depend on the processing

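Of 121 called genes named here, Oas1f aside, 78 kept their call whichever library was left out and 57 in every setting tried. For hippuric acid against vehicle, the count of genes called, 1940 (772 higher, 1168 lower), was 3616 (1817 and 1799) with 1 surrogate variable. Leaving out 1 library gave 1149 to 2786 called genes, 399 to 1445 higher and 733 to 1341 lower. The hippuric acid effect minus induction effect, called in 1557 genes, was called in 1026 to 1555, of which 198 to 448 were higher and not 393. RLE scaling, other filters, DESeq2, voom, all 38 libraries and the length and GC offset kept the count of calls within 1.5 times. The share of higher calls was 35.5% with the offset. Ddit3, hippuric acid against vehicle, and Txnip, hippuric acid against vehicle, were not called and changed sign. Ddit3 was 0.0216 with the surrogate variable, 0.3073 with the offset, 0.0418 with voom and -0.1062 to 0.1473 with 1 library left out (log2 fold change). Txnip was 0.0192 with voom, 0.0907 with the replicate block and -0.1734 to 0.1230 with 1 library left out. The causes were not tested. Replicate numbers did not pair the libraries: deviations of same-numbered libraries correlated at 0.149, -0.062 and 0.087, and hippuric acid library 2 correlated best with vehicle library 1. With the replicate block 887 genes were called, 463 higher and 424 lower. Of the antioxidant enzymes, 2 fell with the block and 13 with 1 surrogate variable. With 3 vehicle libraries, differences in genes of wide spread may go uncalled.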
